A study of Homo sapiens with 4 samples.

Results

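This account concerns stretches of the genome that carried dimethylated lysine 79 of histone H3 (H3K79me2) but had no trimethylated lysine 4 (H3K4me3) beside them. They are the H3K79me2 peaks on chromosomes 1 to 22 that were 3000 to under 50000 bp wide and had no H3K4me3 peak overlapping them or within 2000 bp, and they are called the peaks without H3K4me3 here. There were 5857 of them among 17778 H3K79me2 peaks of that width (32.9%), out of 112870 H3K79me2 peaks in the list. The other 11921, called the peaks with H3K4me3, are what they were set beside. The peaks were chosen by width and distance to H3K4me3, so these measures are given as a description, and the fold of a peak comes from the same list and library.

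The cells were MCF10A, an immortalised human mammary epithelial line that does not form tumours, grown in MEGM with cholera toxin at 100 ng/ml. Chromatin immunoprecipitation and sequencing (ChIP-seq) was carried out from sonicated nuclei with antibodies to H3K79me2 (Abcam), H3K4me3 (Millipore) and H3K27me3 (Abcam), and a library of input DNA had no antibody. No treatment or genotype was compared, and all 4 libraries came from the same line. Each mark had 1 library and 1 list of peaks, no peak list of the input was analysed here, and so no value below has a replicate error or a test. Peak lists do not hold the number of reads, and values are therefore given with no counting error. Peaks carry the fold over the background that the peak caller gave them, and its q-value. The lists hold weak peaks, since their names carry a p threshold of 0.05.

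H3K79me2 is laid down by DOT1L, an enzyme that travels with elongation factors of the transcribing polymerase, and it is known to cover the first part of transcribed genes. H3K4me3 marks the promoters at which such transcription starts, so in most active genes the domains begin together. H3K27me3 is the repressive mark of Polycomb group proteins. A stretch of H3K79me2 with no H3K4me3 nearby can therefore lie further along a gene, at an unmarked start, or outside annotated genes, and the positions measured here tell these places apart.

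Basal markers fit the label of the cells. The 10 basal mammary genes checked, among them KRT5, KRT14 and TP63, each held at least 500 bp of peaks at q of 0.05 or below for both H3K4me3 and H3K79me2. Of the luminal, fibroblast, immune and endothelial markers, 1 of 5, 0 of 5, 0 of 4 and 0 of 3 did so for both marks. For each mark taken singly, H3K4me3 was held by 2, 2, 2 and 1 of these, and H3K79me2 by 1, 0, 0 and 1. The share of all coding genes that reach this measure is not given here.

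Very few start sites lay in these peaks, and the promoters that did were poor in CG dinucleotides. Of 26246 RefSeq promoters (GRCh38.p14, 250 bases before to 50 after the start site) on chromosomes 1 to 22, 3849 had their start site in an H3K79me2 peak of that width (14.7%). Only 42 of these were in a peak without H3K4me3, 11 of protein-coding genes and 31 of long non-coding RNAs, and 3807 were in a peak with H3K4me3. The rule leaves out every peak with H3K4me3 within 2000 bp, so no start with that mark beside it could be among the 42. How far the contrasts between these promoters follow from that choice was not tested. The 11 coding genes were TAS2R30, TAS2R19, GPR183, GPR18, GPR135, PLN, KCNJ15, CDK14, HUS1B, MICAL1 and LOC124903450. TAS2R30 and TAS2R19 encode bitter taste receptors, GPR183 the oxysterol receptor EBI2 of immune cells, and PLN phospholamban of heart muscle. Those promoters held a median of 3 CG (quartiles 1.25 and 5) in peaks without H3K4me3, against 26 (quartiles 18 and 33) in peaks with H3K4me3 and 14 over all promoters. The median GC content was 41.8% in peaks without and 64.3% in peaks with H3K4me3. At least 10 CG were found in 5 of 42 (11.9%) against 3344 of 3807 (87.8%), where all promoters had 55.8%. The letters TATAAA, read on either strand, were in 7 of 42 (16.7%) against 217 of 3807 (5.70%), and in 12.0% of all promoters. By kind of gene, TATAAA was in 4 of the 11 coding promoters (36.4%) against 147 of 2910 (5.05%), and in 3 of the 31 long non-coding ones (9.68%) against 70 of 897 (7.80%). Among promoters in no H3K79me2 peak of that width it was in 10.8% of coding and 15.9% of long non-coding ones. The share of 9.68% was thus below that of long non-coding promoters outside such peaks. The 5 with at least 10 CG were GPR135 with 29, LOC124903253 with 18, and HUS1B, LOC124904946 and LOC105370041 with 11 each.

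Of these, 3 promoters are shown because each start site lies inside the wide H3K79me2 peak of another, longer gene, together with the promoter of GPHN, the gene with most bases in peaks without H3K4me3, as an example of a CG-rich start with H3K4me3. CG is in capitals, all are read 5′ to 3′ on the strand of the gene, and the bases are those of RefSeq GRCh38.p14. TAS2R30 (chr12:11134595-11134894, minus strand) holds 4 CG, GPR183 (chr13:99307350-99307649, minus strand) 4, PLN (chr6:118548046-118548345, plus strand) 2 and GPHN (chr14:66507897-66508196, plus strand) 30.
TAS2R30: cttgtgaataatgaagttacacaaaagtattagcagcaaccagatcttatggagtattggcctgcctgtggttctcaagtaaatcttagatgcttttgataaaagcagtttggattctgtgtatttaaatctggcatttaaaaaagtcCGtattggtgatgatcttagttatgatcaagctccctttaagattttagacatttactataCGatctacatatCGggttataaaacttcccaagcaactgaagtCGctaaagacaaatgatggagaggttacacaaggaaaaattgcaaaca
GPR183: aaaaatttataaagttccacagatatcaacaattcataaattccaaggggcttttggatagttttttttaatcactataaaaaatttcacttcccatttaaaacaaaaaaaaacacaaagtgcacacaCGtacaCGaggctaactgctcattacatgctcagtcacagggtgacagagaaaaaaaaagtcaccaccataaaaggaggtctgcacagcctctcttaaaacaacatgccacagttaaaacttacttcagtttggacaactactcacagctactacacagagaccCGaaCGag
PLN: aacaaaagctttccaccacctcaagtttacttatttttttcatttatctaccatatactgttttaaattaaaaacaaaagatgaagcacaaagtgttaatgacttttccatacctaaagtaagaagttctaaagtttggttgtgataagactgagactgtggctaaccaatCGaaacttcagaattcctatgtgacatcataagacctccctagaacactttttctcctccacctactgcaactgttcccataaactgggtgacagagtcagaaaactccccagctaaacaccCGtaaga
GPHN: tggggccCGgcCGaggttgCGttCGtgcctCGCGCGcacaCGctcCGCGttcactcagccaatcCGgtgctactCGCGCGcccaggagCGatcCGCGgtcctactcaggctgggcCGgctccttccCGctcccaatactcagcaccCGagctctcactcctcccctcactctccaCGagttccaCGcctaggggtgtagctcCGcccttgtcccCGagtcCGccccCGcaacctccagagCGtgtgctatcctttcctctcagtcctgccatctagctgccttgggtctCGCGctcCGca

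The start of TAS2R30 was inside the widest of all peaks without H3K4me3, 49925 bp at 2.88-fold, most of it in the read-through record PRH1-TAS2R14. The start of GPR183 was in a peak of 11208 bp and 2.17-fold that counts to UBAC2, and that of PLN in one of 5565 bp and 2.04-fold that counts to CEP85L. GPHN, which encodes the synaptic scaffold gephyrin, had an H3K4me3 peak of 4840 bp and 22.03-fold at its own start. In these 3 places the H3K79me2 runs through a CG-poor start that has no H3K4me3 peak within 2000 bp.

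MicroRNA hairpins were fewer per Mb in these peaks than in the peaks with H3K4me3. Of 1461 hairpins on these chromosomes in the RefSeq table, 22 overlapped a peak without H3K4me3 (1.51%), against 227 in peaks with H3K4me3 (15.5%). The peaks without H3K4me3 cover fewer bases, and per Mb covered the numbers were 0.596 against 1.52. The number per Mb of whole chromosomes was not computed, so these values do not show whether hairpins were fewer here than elsewhere. Of the 21 that lay wholly inside, 14 were on the strand of the coding gene that held the peak, 5 on the opposite strand and 1, MIR31, outside coding genes. The strand of the host was not in the table for the remaining 1. Their 34 mature sequences had 34 different seeds (bases 2 to 8), so none shared a seed family. The ones shown are well-studied microRNAs or stand in an opposite-strand host, with the seed in capitals and U for T, as RefSeq gives them.
hsa-miR-31-5p: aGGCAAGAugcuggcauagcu
hsa-miR-181a-5p: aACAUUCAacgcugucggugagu
hsa-miR-215-5p: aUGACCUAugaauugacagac
hsa-miR-194-5p: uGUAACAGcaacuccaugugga
hsa-miR-340-5p: uUAUAAAGcaaugagacugauu

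miR-31, an epithelial microRNA studied for its part in breast cancer invasion, came from chr9:21512158-21512178 on the minus strand. Its peak, in the host RNA MIR31HG, was 10575 bp wide at 2.71-fold, and the nearest H3K4me3 peak was 3015 bp away. miR-181a-5p (chr9:124692480-124692502, plus strand) lay opposite to NR6A1, in a peak of 3568 bp and 2.22-fold that also overlaps its host MIR181A2HG. miR-215-5p (chr1:220117916-220117936) and miR-194-5p (chr1:220118206-220118227), both known as p53-responsive, lay on the minus strand opposite to IARS2 and shared 1 peak of 11147 bp and 2.37-fold. miR-340-5p (chr5:180015361-180015382, minus strand) lay along its host RNF130 in a peak of 3546 bp and 2.11-fold. Of 27 epithelial microRNA records listed, 24 were found and 6 overlapped a peak without H3K4me3. These were MIR31 and MIR31HG, which share 1 peak, MIR100HG with 4 peaks, and MIR181A1HG, MIR181A2HG and MIR4435-2HG with 2 each. The share over all hairpin and host records is not given here, so 6 of 24 has no background beside it. The hairpins MIR205, MIR200C, MIR141, MIR21 and MIR203A, typical of epithelium, overlapped none.

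The peaks without H3K4me3 were narrower and weaker than the peaks with it. Their median width was 4742 bp (quartiles 3636 and 7129), against 8583 bp (4952 and 16602). Their median fold was 2.301 (quartiles 2.18 and 2.44, range 1.80 to 4.37), against 3.04 (2.51 and 3.86, highest 7.47). A q of 0.05 or below was reached by 872 (14.9%) against 8942 (75.01%), and a fold of 3 by 83 (1.42%) against 6147 (51.6%). Most of these stretches are thus called at the p threshold of the list and not at a q of 0.05. Together they covered 36.9 Mb against 149.5 Mb, and made up 12.1% of the bases under H3K79me2 peaks on these chromosomes.

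The difference in fold was present within each width class. Below 5000 bp the median fold was 2.24 in 3171 peaks without H3K4me3 and 2.51 in 3042 with it. From 20000 bp up it was 2.60 in 122 and 3.70 in 2261. Peaks without H3K4me3 made up 51.0%, 34.4%, 17.9% and 5.12% of the 4 width classes, from the narrowest to the widest. Their fold also stood nearer to that of the other peaks away from gene ends. Among peaks over 50000 bp from any protein-coding gene end the median fold was 2.29 without and 2.45 with H3K4me3, and over 10000 to 50000 bp away it was 2.31 and 2.51. At 0 to 1000 bp from a gene end it was 2.29 and 3.61. The medians of both kinds were thus farthest apart at gene ends and closest over 50000 bp from any gene end.

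**Figure D1:**
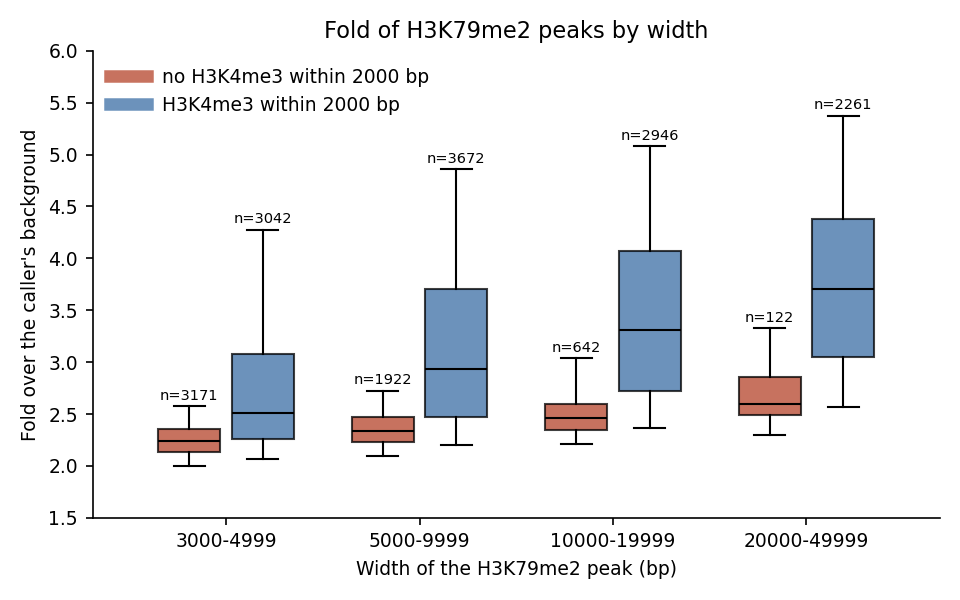
Fold over the caller's background (vertical axis) of H3K79me2 peaks in 4 width classes, without H3K4me3 within 2000 bp (red, left) and with it (blue, right); boxes give the quartiles and the median, whiskers the 5th and 95th percentiles, and n the number of peaks. The median rises with width in both kinds, from 2.24 to 2.60 in red and from 2.51 to 3.70 in blue.

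The nearest H3K4me3 peak was a median of 12834 bp away (quartiles 6731 and 23786, range 2003 to 149877). Up to 5000 bp away there were 929 peaks (15.9%), over 5000 to 20000 bp 3085 (52.7%), over 20000 to 100000 bp 1824 (31.1%) and farther 19 (0.324%). The median fold in these classes was 2.298, 2.31, 2.28 and 2.21, so it hardly varied with the distance to H3K4me3. The median gene length of the last class was 353.7 kb, against 128.8 to 165.1 kb in the other classes, and all of its 19 peaks were in coding genes. Nearest H3K4me3 peaks were often weak themselves: 3059 (52.2%) had a q above 0.05 and 1573 (26.9%) reached 5-fold. In genes of known strand the nearest one lay toward the gene's start for 3033 peaks (64.6%) and toward its end for 1664.

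The folds of the few peaks nearest the limit of 2000 bp that are named here were close on both sides. The peaks in ZFHX3 and RFFL, within the limit, were wider than the rest. Just outside it were peaks in DOCK4 (2003 bp from H3K4me3, 4313 bp wide, 2.25-fold), RCBTB1 (2010 bp, 3146 bp wide, 2.101-fold) and PPP1R14C (2014 bp, 4166 bp wide, 2.39-fold). Just within it, and so left out, were peaks in ZFHX3 (1994 bp from H3K4me3, 13767 bp wide, 2.40-fold), LMBR1 (1994 bp, 4408 bp wide, 2.39-fold) and RFFL (1992 bp, 10522 bp wide, 2.21-fold).

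From the nearest end of a protein-coding gene, 160 peaks were within 1000 bp (2.73%), 969 over 1000 to 10000 bp away (16.5%), 2764 over 10000 to 50000 bp (47.2%) and 1964 farther (33.5%). In peaks with H3K4me3 these shares were 55.8%, 11.1%, 18.9% and 14.2%. The rule leaves out peaks beside a gene end with H3K4me3, and the other peaks were chosen for having that mark. Part of the differences at gene ends is thus built in. The kind of end differed as well, which follows largely from the same choice, since peaks beside a 5′ end with H3K4me3 are left out. Of the 160, 128 had an end of known strand, and it was the 3′ end in 114 and the 5′ end in 14. In peaks with H3K4me3 within 1000 bp of an end, 4893 of 5522 were at a 5′ end. The crossing of both splits had its largest group, 1568 peaks, over 5000 to 20000 bp from H3K4me3 and over 10000 to 50000 bp from a gene end, and of the 19 peaks farthest from H3K4me3, 16 were over 50000 bp from a gene end.

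**Figure D2:**
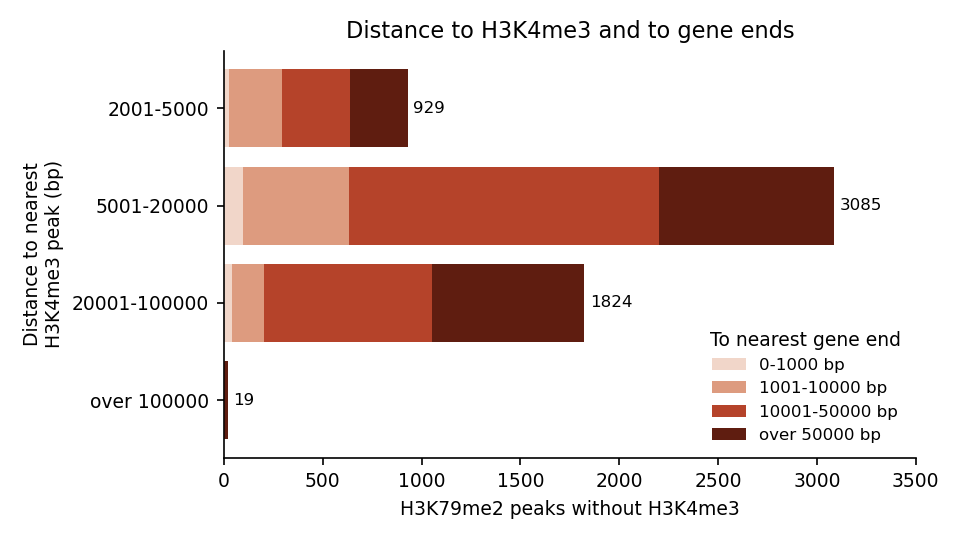
Number of H3K79me2 peaks without H3K4me3 (horizontal axis) by distance to the nearest H3K4me3 peak (rows) and to the nearest protein-coding gene end (shades). The row of peaks over 5000 to 20000 bp away holds 3085 of the 5857 peaks, and the darkest shade, over 50000 bp from a gene end, takes 886 of it.

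These peaks were within genes. At least 50% of the peak lay in a protein-coding gene record for 5576 (95.2%), against 11061 peaks with H3K4me3 (92.8%). The whole peak lay in the record for 5528 (94.4%), against 8382 (70.3%). The gene table gives records, not exons, so exons, introns and UTRs were not told apart. Of the 5576, 5567 (99.8%) were in a gene with an H3K4me3 peak in its record or within 2000 bp. This share is to be read against 82.5% of all coding genes (15772 of 19126), and 95.6% of the 6011 genes of 50000 bp or longer. The same number, 5567, shared their gene with an H3K79me2 peak, of any width, that did have H3K4me3. The share of all coding genes with a peak of that kind was not computed, so this count has no background beside it.

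They lay downstream of the start. In 4697 cases the gene's strand was known, and 4619 of these peaks (98.3%) were downstream of the RefSeq start site. A peak was assigned only to a gene whose record holds most of it, and peaks beside a start with H3K4me3 are left out. A high share downstream thus follows largely from these rules. The same share for the peaks with H3K4me3 is not given here, so 98.3% has no background beside it. The median distance was 51169 bp (quartiles 24533 and 100235), at 42.9% of the gene's length. Over 10000 bp downstream were 4346 (92.5%), over 50000 bp 2391 (50.9%) and over 100000 bp 1176 (25.04%). The start of their own gene was inside 4 peaks without H3K4me3, against 2177 peaks with it, a contrast that the rule on H3K4me3 also builds in for marked starts. Wholly upstream of the start site used were 74, among them the 3.47-fold peak in FRMD4B, at −51362 bp from it; the table gives 1 start per gene, and a record can begin earlier.

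The signal declined a little with distance from the start. The median fold was 2.36 within 10000 bp (273 peaks), 2.33 over 10000 to 25000 bp away (839), 2.31 over 25000 to 50000 bp, 2.301 over 50000 to 100000 bp and 2.27 both over 100000 to 200000 bp and farther. The share with q of 0.05 or below was 18.8% over 10000 to 25000 bp away and 8.40% beyond 200000 bp. Within genes the same order was seen more often than not. In 1034 genes of known strand with at least 2 such peaks, the one nearest the start had a higher fold than the one nearest the end in 651 (63.0%) and was wider in 633 (61.2%).

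Along 706 genes of 200000 bp or longer with H3K4me3 at the start, peaks of different kinds followed each other. Peaks without H3K4me3 covered 0.0488% of the first 5000 bp, which the rule itself keeps near 0 beside H3K4me3, then 3.84% at 10 to 15 kb, 7.86% at 45 to 50 kb and 3.46% at 195 to 200 kb. Peaks with H3K4me3 covered 34.97% of the first 5000 bp, 7.92% of the bases at 45 to 50 kb and 3.52% at 195 to 200 kb. H3K79me2 peaks of 50000 bp or wider covered 10.5%, 13.4% and 1.76% of the bases at 0 to 5, 45 to 50 and 195 to 200 kb. Peaks under 3000 bp covered 4.77% and 5.97% at the first and last of these, a nearly even level. The peaks without H3K4me3 were thus densest at a distance where cover by the peaks with H3K4me3 had come down to the same level.

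**Figure D3:**
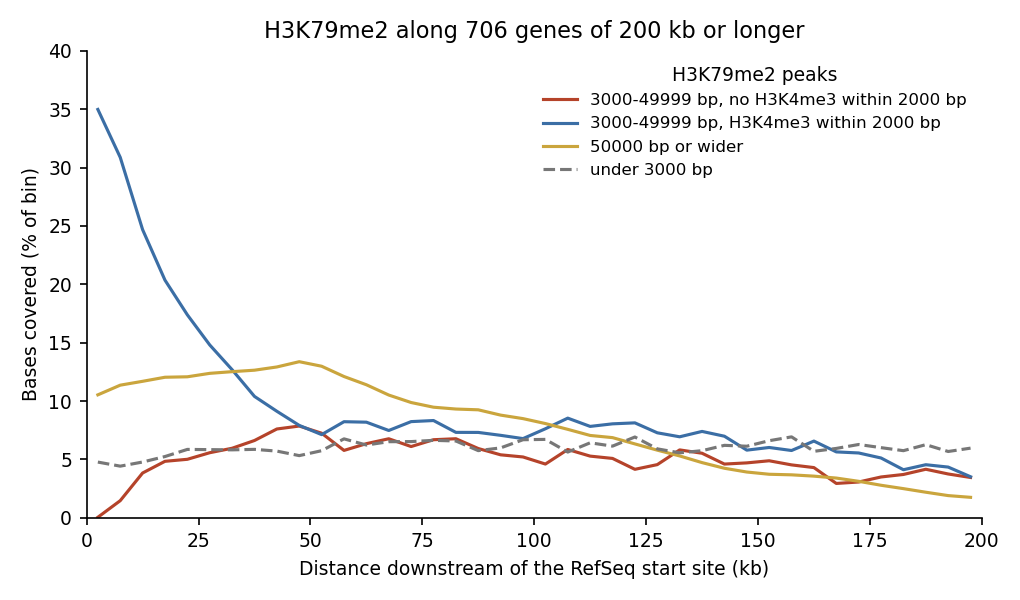
Share of bases (vertical axis, in bins of 5 kb) covered by 4 kinds of H3K79me2 peaks against the distance downstream of the RefSeq start site, over 706 genes. The red line, peaks without H3K4me3, has its highest value of 7.86% at 45 to 50 kb, where the blue line, peaks with it, is at 7.92% after 34.97% in the first bin.

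Gaps between neighbouring H3K79me2 peaks were short. The nearest H3K79me2 peak of any kind was a median of 744 bp away (lowest 602), and within 1000 bp for 4608 peaks (78.7%), against 7972 peaks with H3K4me3 (66.9%). Joining peaks across gaps under 3000 bp tied 4654 of the 5857 (79.5%) to a run that had H3K4me3. The other 1203 (20.5%) formed 920 runs without it and had a median fold of 2.24, against 2.32 for those tied to H3K4me3. With gaps under 10000 bp 113 peaks in 101 runs stayed apart. The number of stretches that stand apart from H3K4me3 therefore depends on the gap across which peaks are joined.

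The genes that held these peaks were long. A record must hold at least 50% of a peak of 3000 bp or more that lies away from H3K4me3. Short genes with H3K4me3 have little room for that, so part of the difference in length is built in. How large that part is was not tested. At least 50% of such a peak lay in 2679 of 19126 coding genes (14%), and in 2024 of the 5747 genes of 50000 bp or longer with H3K4me3 (35.2%). The median length was 93.2 kb in the genes that held one, against 23.7 kb in genes with H3K4me3 that did not and 24.5 kb in all. Among genes with H3K4me3 the share was 0.119% under 10 kb (4 of 3364), 13.9% at 20 to 50 kb, 29.3% at 50 to 100 kb, 41.2% at 100 to 200 kb and 38.9% above that. Genes without H3K4me3 held such a peak in 0 of 1964 under 10 kb and in 2 of 70 at 100 to 200 kb. Of the 2619 genes to which a peak was assigned, 1395 had exactly 1, 1224 had at least 2 and held 71.4% of the peaks, 34 had at least 10, and the highest number was 22, in PDE4D.

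**Figure D4:**
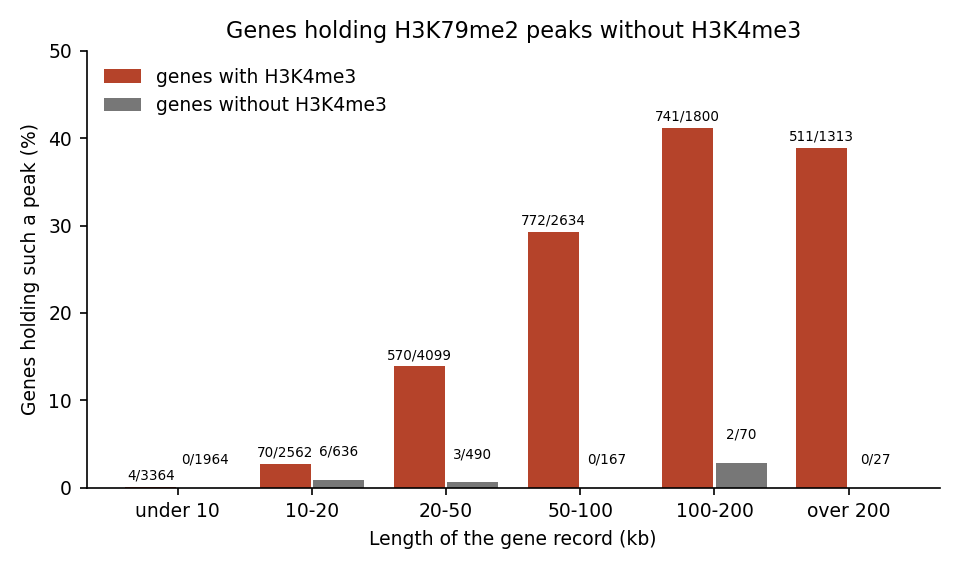
Share of protein-coding genes that hold an H3K79me2 peak without H3K4me3 (vertical axis), by length of the gene record, for genes with H3K4me3 in or near the record (red, left) and genes without (grey, right); numbers give genes with such a peak over all genes. Red bars climb from 0.119% to 41.2%, and grey bars reach 2.86% (2 of 70 genes).

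Their start sites were marked. Of 2201 such genes with a start in the table, 2106 (95.7%) had H3K4me3 within 1000 bp of it, at a median of 16.8-fold. H3K79me2 lay there in 2051 (93.2%), at a median of 3.58-fold and 16971 bp. The share of all genes with H3K4me3 within 1000 bp of the start was not computed. Of the 6011 genes of 50000 bp or longer, 95.6% had H3K4me3 in the record or within 2000 bp, which is a looser measure. Among genes of 50000 bp or longer with H3K4me3 at the start, those with a peak without H3K4me3 further along had H3K79me2 at the start in 1500 of 1588 (94.5%), with a median width of 20754.5 bp and 3.53-fold. Those with none had it in 1379 of 2280 (60.5%), with 10853 bp and 3.17-fold. Genes with stretches without H3K4me3 thus more often had H3K79me2 at the start, and over more bases, with both measured in the same library.

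The gene with most bases in these peaks was GPHN, with 166419 bp in 18 peaks assigned to it. Its start had H3K79me2 over 40961 bp at 3.63-fold. From there the peaks followed at 43.3 to 51.5 kb (2.305-fold), 52.5 to 74.2 kb (3.18-fold), 76.0 to 80.5 kb (2.36-fold) and 116.8 to 154.8 kb (38002 bp, 2.88-fold). The next were at 160.6 to 174.2 kb (13579 bp, 3.15-fold), the second strongest, and at 177.7 to 187.5 kb (9879 bp, 2.66-fold), and the last was at 395.1 to 398.5 kb (2.14-fold). All 18 thus lay within 398.5 kb of the start of a gene of 1227 kb, and the strongest was the second from the start. A 19th peak in the record, at 773.0 to 777.5 kb (4432 bp, 2.20-fold), is assigned to PALS1, whose record overlaps that of GPHN.

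In CHCHD3, which encodes a subunit of the mitochondrial inner membrane complex MICOS, 11 peaks made up 41.8% of the gene. The one nearest the start, at 63.9 to 95.7 kb, was both the widest (31855 bp) and the strongest (3.18-fold). The next were at 97.2 to 109.3 kb (2.60-fold), 110.1 to 134.5 kb (2.65-fold), 136.1 to 150.3 kb (2.36-fold) and 151.3 to 162.4 kb (2.49-fold), nearly without a break. The last 6, from 206.4 to 258.3 kb, ranged from 2.22- to 2.54-fold.

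SBF2, a member of the myotubularin-related family, had 11 peaks over 114791 bp between 78.3 and 273.7 kb, from 2.09- to 2.77-fold. EXOC4, a subunit of the exocyst that tethers vesicles at the membrane, had 20 over 142606 bp, from 2.11- to 2.68-fold, between 26.2 and 376.4 kb. LPP, a LIM protein of focal adhesions, had 19 over 136227 bp, from 1.96- to 2.60-fold, between 49.7 and 658.02 kb. In none of these 3 did a peak reach 3-fold.

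**Figure D5:**
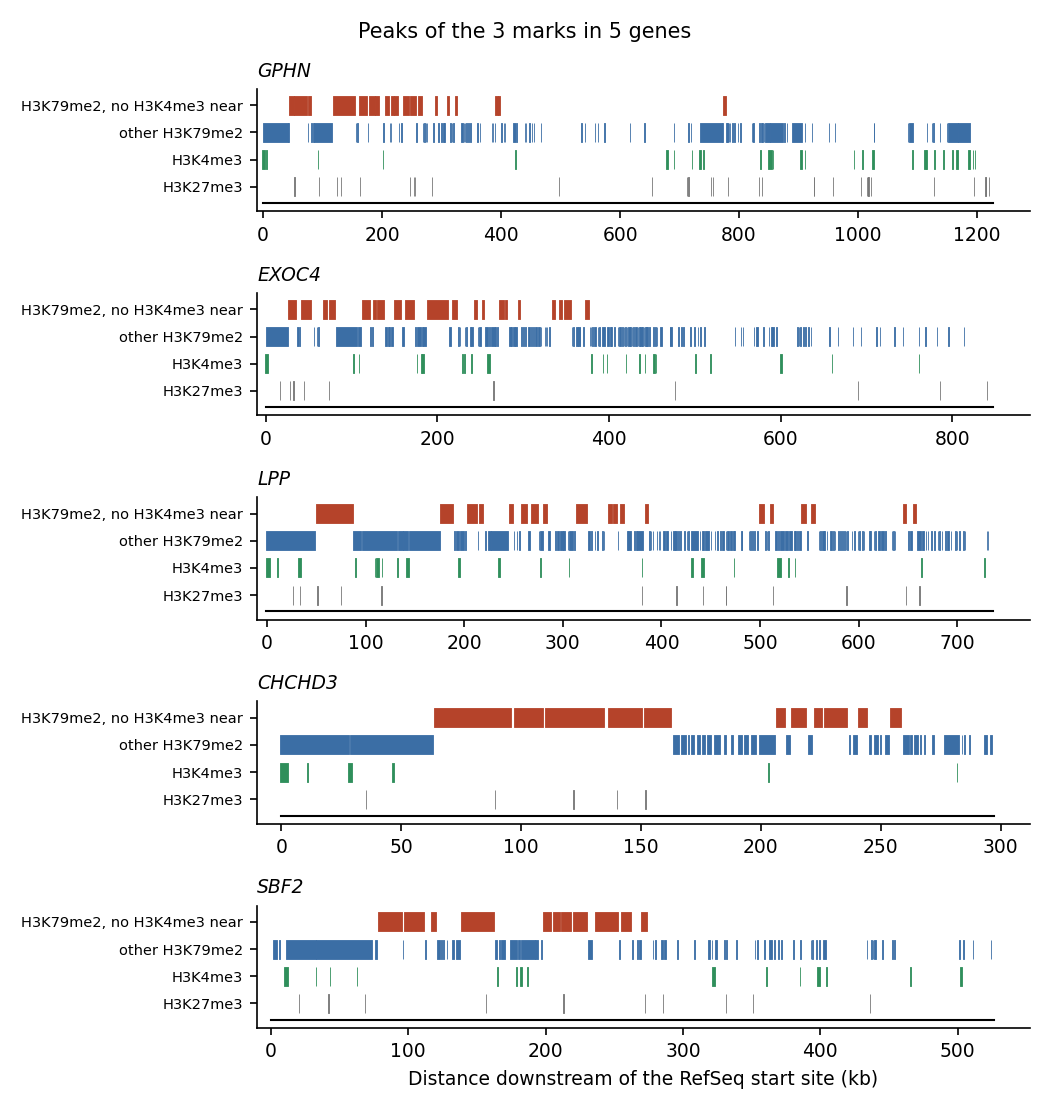
Peaks of H3K79me2 without H3K4me3 (red), other H3K79me2 peaks (blue), H3K4me3 (green) and H3K27me3 (grey) along GPHN, EXOC4, LPP, CHCHD3 and SBF2, in kb downstream of the RefSeq start site; the black line is the gene record, and each gene has its own scale. Red stretches begin past the blue stretch at the start, at 43.3, 26.2, 49.7, 63.9 and 78.3 kb.

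The other genes with most bases in these peaks were RERE (13 peaks, 119591 bp), PDE4D (22, 114546 bp), UBE2E2 (8, 111759 bp), PID1 (6, 104851 bp) and PTPRK (17, 99589 bp). RERE encodes a nuclear receptor coregulator, PDE4D a cyclic AMP phosphodiesterase, UBE2E2 a ubiquitin-conjugating enzyme and PTPRK a receptor-type tyrosine phosphatase. PID1 stood out by share, with 42.4% of its record in 6 peaks of 2.39- to 2.802-fold, and PDE4D by number with only 7.38% of its record.

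The 10 widest peaks ran from 39396 to 49925 bp. After the one at PRH1-TAS2R14 (chr12:11097943-11147867) came those in PID1 (48351 bp, 2.77-fold), TACC2 (47174 bp, 2.92-fold), PVT1 (44033 bp, 2.46-fold) and UBL3 (41975 bp, 2.68-fold). TACC2 encodes a centrosomal coiled-coil protein, and PVT1 is a long non-coding RNA, here with H3K4me3 no nearer than 55533 bp. A peak of 41249 bp and 2.803-fold at chr6:154820620-154861868 lay across the 3′ end of SCAF8, a gene of an RNA-binding factor of the polymerase tail, with less than 50% of it inside the gene. ADAM10, a sheddase of Notch and cadherins, had 40985 bp at 3.08-fold, FARSB 40428 bp at 2.53-fold, MOB1B of the Hippo pathway 39847 bp at 2.81-fold and the adaptor CD2AP 39396 bp at 3.33-fold. Only ADAM10 and CD2AP passed 3-fold among these 10, and 2 of the 10, in PVT1 and at SCAF8, were not assigned to a coding gene.

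The highest fold, 4.37, stood in HERC2, a ubiquitin ligase gene of DNA damage repair, at chr15:28146472-28151878, 170301 bp from its start. HERC2 has near-identical partial copies elsewhere, such as HERC2P3, so reads there can be placed on the wrong copy and the value is uncertain. Next came EIF3H, a translation initiation factor subunit (32567 bp, 3.88-fold), and PKD1P2, a copy of PKD1 with the same uncertainty (5681 bp, 3.66-fold). KPNA3, an importin alpha of nuclear import (21756 bp), and LPIN1, a lipid phosphatase (6030 bp), stood at 3.63- and 3.62-fold. EED, a core subunit of the Polycomb complex that writes H3K27me3, had 13405 bp at 3.595-fold, 19698 bp from its start. TYMS, the thymidylate synthase gene (3623 bp), and NSD1, a methyltransferase of lysine 36 of histone H3 (27579 bp), had 3.58- and 3.56-fold. ZNF516 (12953 bp) and the calcium pump gene ATP2C1 (22344 bp) had 3.56- and 3.54-fold. The 10 were from 3623 to 32567 bp wide, so the strongest peaks were of many widths. At the other end were peaks in SIPA1L2 and ZNF608, both at 1.80-fold, and BIRC6 at 1.81-fold.

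The farthest from any H3K4me3 were weak and narrow. RNGTT, the mRNA capping enzyme gene, had 3 of the 10 farthest, at 149877, 136508 and 123214 bp, with 2.22-, 2.299- and 2.09-fold. DIS3L2, a 3′ exonuclease, had one at 137983 bp (2.17-fold) that contains the hairpin MIR562. GSK3B, the kinase of Wnt and insulin signalling, had one at 128355 bp (2.45-fold) and one at 119799 bp that was 7574 bp wide at 2.73-fold, the only one of the 10 at q of 0.05 or below. ZRANB3 (126058 bp, 2.15-fold), FARS2 (121017 bp, 1.996-fold), RSRC1 (119006 bp, 2.13-fold) and UBR3 (117905 bp, 1.91-fold) made up the rest. All 10 lay in the record of a coding gene, from 126382 to 259199 bp downstream of its start.

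Within 5000 bp of H3K4me3 the highest fold was 3.52 in PAM16, a subunit of the mitochondrial import motor, then 3.47 in FRMD4B and 3.43 in PDIA6, a disulfide isomerase of the endoplasmic reticulum. Within 1000 bp of a gene end the highest after PAM16 were 3.28 in ISCA1, at its 3′ end, and 3.15 at chr21:34139103-34147440, across the 3′ end of MRPS6.

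Outside protein-coding genes, 260 peaks had no base in any coding record. Of these, 104 lay mostly in long non-coding RNAs, 54 in transcribed pseudogenes, 10 in other pseudogenes, 4 in antisense RNAs and 88 in no RefSeq record. Of the 88, 73 had a nearest coding gene of known strand, and within 5000 bp of a gene 17 were at its 3′ end and 3 at its 5′ end. Within 10000 bp it was 23 and 10. Over all 260, 220 of them with a nearest gene of known strand, the counts at the 3′ and 5′ ends were 26 and 7 within 5000 bp, 36 and 28 within 10000 bp and 76 and 73 within 50000 bp, so the difference was no longer seen at the longest distance. The choice of peaks away from H3K4me3 itself leaves out those beside a start with that mark. The highest folds outside coding genes were in pseudogene copies on chromosome 16: PKD1P2 (3.66), PDXDC2P-NPIPB14P with 2 peaks (3.42 and 3.39) and PKD1P4-NPIPA8 (3.10). LOC101929950 (2.97), ALOX12P2 (2.85), NUTM2B-AS1 (2.82) and HERC2P3 (2.77) followed, and several of these have near-identical copies, so their values are uncertain. In no record were chr13:19612666-19628796 (16131 bp, 2.90-fold), 4863 bp from the 5′ end of MPHOSPH8, and chr19:30025629-30030116 (4488 bp, 2.798-fold), 9017 bp from the 3′ end of URI1.

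Genes with such a peak and no H3K4me3 at all were few. There were 11, and 7 of these overlap the record of another gene that does have H3K4me3: TXLNB in HECA, INSL6 in JAK2, HTR2B in PSMD1, KCNJ13 in GIGYF2, GPR183 in UBAC2, GPR21 in RABGAP1 and PLN in CEP85L. The other 4 were ZNF814 (1 peak, 3.29-fold), LOC124903450 (2 peaks, 2.31- and 3.04-fold), the creatine kinase gene CKMT2 (1 peak, 2.33-fold) and the orphan receptor gene GPR135 (1 peak, 2.20-fold). ZNF814 lies among zinc finger genes of similar sequence on chromosome 19, so its value is uncertain. Where 2 gene records overlap, a peak cannot be given to one of them. The peak of GPR135 also reached the 3′ end of the gene L3HYPDH, so it cannot be given to GPR135 alone.

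H3K27me3 touched few of these peaks, and about as many as among other H3K79me2 peaks of like width. At least 1 bp was shared with an H3K27me3 peak by 616 (10.5%), against 1975 peaks with H3K4me3 (16.6%). Within width classes the shares came close: 7.22% and 6.64% below 5000 bp, 11.0% and 9.53% from 5000 bp, 20.4% and 19.96% from 10000 bp, and 36.1% and 36.9% from 20000 bp. Per kb, 3.63 and 3.16 bp were under H3K27me3. With H3K27me3 peaks at q of 0.05 or below the shares were 0.581% and 1.22%, and at least 10% of the peak was covered in 10 against 18 peaks. The most H3K27me3, 3211 bp, was in a peak of 15458 bp and 2.50-fold at chr9:11039342-11054799, in no RefSeq record, followed by 1237 and 1130 bp in 2 peaks of ELAPOR2. All but 34 of the 616 overlaps were thus with H3K27me3 peaks that had a q above 0.05.

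By chromosome, the share of H3K79me2 peaks of this width that had no H3K4me3 near was lowest on chromosome 19, with 92 peaks (14.2%), then 22 (21.4%), 17 (26.5%) and 16 (26.99%). It was highest on chromosomes 13 (39.7%), 18 (39.2%) and 2 (39.0%). Chromosome 1 had the most, 584. The median fold per chromosome ranged from 2.23 on chromosome 1 to 2.38 on chromosome 19.

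Actin and adhesion genes held such peaks most often among the gene lists, with 27 of the 35 found (77.1%) against 14% of all coding genes, and 26 of 32 of those of 50000 bp or longer with H3K4me3 against 35.2%. The median length of the list was 181.6 kb. Beside LPP, DIAPH3, a formin that nucleates actin filaments, had 8 peaks over 68629 bp (2.08- to 2.799-fold), ARHGEF28, an exchange factor of RhoA, 6 over 55957 bp (2.25- to 2.58-fold) and PARD3, a polarity protein, 6 over 41939 bp (2.01- to 2.27-fold). The catenin genes CTNNA1 and CTNNB1 had 1 each, at 2.19- and 2.24-fold.

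DNA repair genes held them in 19 of 37 (51.4%), and in 16 of 29 long ones with H3K4me3. PRKDC, the kinase of end joining, had 7 peaks (34189 bp, 2.04- to 2.90-fold), RAD50 of the MRN complex 4 (19265 bp, 2.05- to 2.15-fold), BARD1, the partner of BRCA1, 3 (14954 bp, 2.18- to 2.34-fold) and FANCC of the Fanconi pathway 2 (16490 bp, 2.29- and 2.52-fold). Genes of Hippo and TGF-beta signalling held them in 13 of 29 (44.8%; 12 of 22 long ones), led by the Hippo kinase STK3 with 11 peaks over 68925 bp (2.07- to 2.86-fold). AMOTL1, which holds YAP in the cytoplasm, had 3 at 2.28- to 2.59-fold, the ubiquitin ligase SMURF2 3 at 2.22- to 2.29-fold and STK4 2 at 1.81- and 2.21-fold.

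EGFR and ERK genes held them in 13 of 32 (40.6%; 12 of 17 long ones). EGFR itself, on which MCF10A cells depend for growth, had 1 of 10418 bp at 3.10-fold, 139762 bp downstream of its start, and 1 of 4309 bp at 3.01-fold, 175669 bp downstream. Both lay beyond an H3K79me2 peak of 113747 bp and 4.85-fold at its start. The transcription factor gene ETV5 had 2 (17487 bp, 1.97- and 2.47-fold), the phosphatase PTPN11 2 (14899 bp, 2.097- and 2.55-fold) and the adaptor GAB1 2 (13589 bp, 2.35- and 2.57-fold). Among genes of H3K79 methylation and elongation, 12 of 33 held one (36.4%; 9 of 15 long ones). DOT1L, the writer of the mark, had 2 at 2.25- and 2.37-fold, and its partners MLLT10 and MLLT1 had 1 each at 2.27- and 2.38-fold. CDC73 of the PAF complex had 3 (35682 bp, 2.21- to 2.496-fold), the kinase CDK13 3 (33739 bp, 2.13- to 2.52-fold), the elongation factor TCEA1 2 (15512 bp, 2.32- and 2.46-fold) and RTF1 1 (12445 bp, 2.55-fold).

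Basal epithelial genes held such peaks in 6 of 24 (25%; 3 of 11 long ones). These were EGFR, the integrin gene ITGB4 (2 peaks, 2.28- and 2.36-fold), the plakin gene DST (2, 2.07- and 2.50-fold), TP63 (2, 2.29- and 2.49-fold), the desmoplakin gene DSP (2.20-fold) and the laminin gene LAMB3 (2.07-fold). All 24 had H3K4me3, and their median length was 47.3 kb, below that of the lists above apart from the elongation list at 40.5 kb. Zinc finger genes named ZNF with a number held them in 63 of 497 (12.7%; 33 of 83 long ones), close to all genes. ZNF678 had 5 peaks (39995 bp, 1.97- to 2.73-fold), ZNF516 4 (32201 bp, 2.14- to 3.56-fold), ZNF654 1 of 32806 bp at 2.81-fold and ZNF431 1 of 27995 bp at 3.53-fold, more than 50% of its record. Zinc finger genes in clusters share near-identical exons, so single values there are uncertain.

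Lists of genes of other cell types held none. None of the 23 neuronal genes found had such a peak, and their median length was 774.7 kb. Of these, 20 were of 50000 bp or longer with H3K4me3 in the record or within 2000 bp. That measure was met by 95.6% of all coding genes of that length and does not require H3K4me3 at the start. No such peak was found either in the 21 germline genes (9 long ones) or the 23 immune genes (12 long ones). These counts have no test, the lists were put together with earlier results of these data known, and the genes within a list differ in length.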

How the data were processed

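The members, gene lists and splits were chosen with earlier results of these data known. Per the submitters' processing notes, Bowtie2 2.3.1, MACS2 2.1.1 and the build hg38 were used; the use of the input as a control and the handling of duplicate reads are not given in the sources used here. Per the deposited column layout, the broad peak lists of H3K79me2 (112870 peaks) and H3K4me3 (67904) and the narrow list of H3K27me3 (393324) give chromosome, start and end, the authors' fold per peak (a ratio over the caller's background), and the deposited −log10 of its p-value and q-value. A q of 0.05 or below was taken as a deposited −log10 q of at least 1.3. Peaks were called per library, with 1 library per mark, so no list is pooled and read depth, and with it precision, is unknown. Folds were compared only between peaks of 1 list.

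Coordinates were set 1-based, and distances run from edge to edge. A peak was assigned to the protein-coding record of a RefSeq table (GRCh38.p14, 19126 genes on chromosomes 1 to 22) that holds at least 50% of it, ties going to the shorter record. Start and strand came from a promoter table, which had 15101 of these genes; exons are not in these tables. Overlap was at least 1 bp. The interval code was checked against brute force on 300 simulated intervals, with 0 disagreements. Python 3.11.15, numpy 2.4.6 and pandas 2.3.3 were used. No test was made.

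Named were the 10 widest, the 10 of highest fold and the 10 farthest from H3K4me3; the 10 genes with most bases in such peaks; genes with no H3K4me3; the 10 of highest fold outside coding genes; the 3 of highest fold in each distance class and on each side of the limit; and up to 4 genes per list. Other genes, such as FRMD4B in the text on upstream peaks, DOT1L, MLLT1, MLLT10, CTNNA1, CTNNB1, LAMB3, DSP, ELAPOR2, and those of lowest fold, were named after their values were seen, as were the microRNAs and promoters shown. The design foresaw 300 bases at the centres of some peaks, which need a genome, and none was used here. Alternatives were other distances, widths, thresholds of each mark, joined peaks, and other rules of overlap and ties.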

Additional observations from a re-analysis of the deposited data

Results flagged for a closer look

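Chromosome X was outside the chromosomes analysed, and it had the same kind of peak. Of its 453 H3K79me2 peaks of 3000 to under 50000 bp, 166 (36.6%) had no H3K4me3 within 2000 bp, against 32.9% on chromosomes 1 to 22. Their median fold was 2.34 and the highest 3.07, and 150 lay in a protein-coding record. This was singled out as signal outside the main measurement, with no control to set it against.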

How the results depend on the processing

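No paired analysis was possible because each mark had 1 library. Of 53 alternative values, 22 stayed close to those reported and 31 moved, where close means within 1.5 times for a count and within the 95% interval of the reported value for a share (Wilson) or a median (order statistics), so a median could move by very little. The 5857 peaks became 3542 with a distance of 10000 bp, and 20996 and 1965 with a minimum width of 1000 and 6000 bp. They became 872 at q of 0.05 or below and 83 at 3-fold. Within that range were 7598 with H3K4me3 peaks at q of 0.05 or below and 4549 with H3K79me2 peaks joined across 3000 bp. The joined count is close in number only. After joining, 1203 of the 5857 peaks, in 920 runs, stayed without H3K4me3, so the 4549 are largely other stretches. In the same order of width, q and 3-fold, the median fold was 2.18, 2.41, 2.64 and 3.15; it was 2.32 with H3K4me3 peaks at q of 0.05 or below and 2.27 with H3K79me2 peaks joined across 3000 bp. The share in genes was 92.6% and 96.3% at the 2 widths, 94.0% at 3-fold, 89.3% when joined and 94.4% for whole peaks. The share of these in a gene with H3K4me3 was 97.4% at 3-fold and 99.5% when joined. The share touching H3K27me3 was 5.46%, 16.3%, 16.2% and 22.9% over width, q and 3-fold, 11.4% with H3K4me3 at q of 0.05 or below, 13.4% when joined, 0.581% with H3K27me3 at q of 0.05 or below and 0.171% with at least 10% covered. Genes without H3K4me3 numbered 47 and 5 at the 2 widths, 2 at q of 0.05 or below, 2 at 3-fold and 23 when joined. Stricter rules leave fewer peaks by construction, and the cause of other moves was not tested. One alternative, ties to the longer record, was chosen after seeing the data and left the share of peaks in genes whose gene has H3K4me3 at 99.9%. Most peaks without H3K4me3 did not reach a q of 0.05, and with 1 library it cannot be told which would be found again.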
